A study of Drosophila melanogaster with 6 samples.

Results

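The genes described here are those of the Toll and Imd pathways, the routes by which Drosophila melanogaster senses microbes and switches on its immune genes, together with the thioester proteins that bind microbes. They were taken from a fixed list of 42 gene symbols, of which 32 were each matched to 1 row of the array that carried that symbol alone. The other 10 symbols (PGRP-LC, PGRP-SA, PGRP-SC1a, PGRP-SD, GNBP1, Tep1, Tep2, Mcr2, modSP and Tak1) had no such row in the annotation used and were not analysed here. The rule names genes by symbol, although the list was drawn up with earlier results of these data known. The 32 genes were compared among 16322 array rows in all.

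In flies, peptidoglycan recognition proteins (PGRPs) and Gram-negative bacteria-binding proteins (GNBPs) include sensors of fragments of microbial cell walls. Fungi and many Gram-positive bacteria set off a cascade of serine proteases in the blood that cuts the ligand Spätzle, which activates the receptor Toll and, through Myd88, Tube and Pelle, releases the NF-κB factors Dorsal and Dif from Cactus. Meso-diaminopimelic acid peptidoglycan, typical of Gram-negative bacteria, acts through PGRP receptors on Imd, Fadd and the caspase Dredd, which leads to cleavage and activation of the NF-κB factor Relish. Much of both pathways is controlled at the level of protein cleavage, binding and location, which RNA levels do not show. Fat body and blood cells are the best known sites of both responses, and both pathways also act in the nervous system.

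The study sought expression changes common to fly lines with bang-sensitive seizures, which follow a mechanical shock and here arise from changes made in glia. Each of the 6 arrays (GeneChip Drosophila Gene 1.0 ST) measured total RNA, 3 from controls and 3 from a pool of 7 lines. All flies carried repo-GAL4, which drives expression in glia. The controls combined it with the empty TRiP RNA interference vector, stock 36303. The pool mixed equal amounts of RNA from 7 crosses to the same driver: UAS-Dube3a and UAS-htt.12Q.FL, which are overexpression lines, and SesB-RNAi, COX7A-RNAi, comt-RNAi, nrv2-RNAi and ATPalpha-RNAi. Flies were about 3 to 5 days old and raised at 25 °C, and 15 to 25 heads were used per genotype. The labels name the tissue as brain while the protocol describes heads, so fat body, blood cells, eye, muscle and cuticle of the head capsule may also be sampled. A line with a large response and 7 lines with a small one give the same pooled value, and fewer cells of a type and less RNA per cell cannot be told apart. Nothing in the labels says whether the 3 arrays of a group are separate sets of flies or repeats of 1 RNA pool, so the spread behind each p-value is that of 3 arrays and may be technical only.

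Values are the log2 signals as deposited, and differences are pool minus control with the standard error and Benjamini-Hochberg adjusted p of limma over all rows. A gene was called at an adjusted p under 0.05. Array medians lay between 5.53 and 5.63, and 2 arrays of a group differed by an SD of 0.150 to 0.180 across rows. Ube3a, the fly gene that UAS-Dube3a overexpresses, was higher in the pool, as the labels of that 1 line imply: it read 8.20, 8.33 and 8.33 in the controls and 9.23, 9.30 and 9.25 in the pool. The RNA interference targets sesB (0.05), COX7A (0.05) and nrv2 (-0.07) were not called, and each was targeted in 1 of the 7 lines only. Values of the other RNA interference targets, comt and ATPalpha, were not read here. Of the marker genes set for the tissue, all 7 measured for neurons, all 9 for glia and all 5 for photoreceptors lay above the dimmest 25% of rows. Levels of different genes are not compared, because signals of different probes are not on a common scale.

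No Toll or Imd gene passed the test in the pool. The median difference over the 32 was -0.01 on the log2 scale, beside -0.00 over all rows. Limma called 0 of the 32, against 2.90% of all rows (1.65% higher and 1.24% lower). These are 270 rows higher and 203 lower, and 219 and 249 after centring each array on its median, again with 0 of the 32. At an unadjusted p under 0.05 in limma, 7 genes remained, 3 higher (PGRP-LA, PGRP-LF and PGRP-SB1) and 4 lower (PGRP-SC2, Tep4, SPE and grass). That is 21.9% of the 32, against 14.8% of all rows (7.96% higher and 6.85% lower). With eBayes given a trend and robust settings, 1 gene was called, Tep4. In 9 of the 32 the pool and control arrays did not overlap, or 28.1%, against 21.5% of all rows. Of these 9, 4 were higher and 5 lower, where 11.4% and 10.0% of all rows did so. In total 14 genes lay above 0 and 18 below it, and 50.2% of all rows lay below 0. None of these shares was tested against the rest of the array.

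The intervals give the precision of each pooled difference over these arrays and do not bound the change in a single line. They rest on the spread of 3 arrays per group, which may be technical only. The 95% interval of the difference, not adjusted for the number of genes, lay within a 1.5-fold change in either direction for 31 of 32 genes (96.9%, against 96.6% of all rows) and within a 1.2-fold change for 15 (46.9%, against 59.4%). PGRP-SC2 was the exception at 1.5-fold, with a lower bound of -0.60. The median absolute difference was 0.06 on the log2 scale in the 32 genes and 0.07 over all rows, and the median standard errors were 0.0653 and 0.0677.

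**Figure D1:**
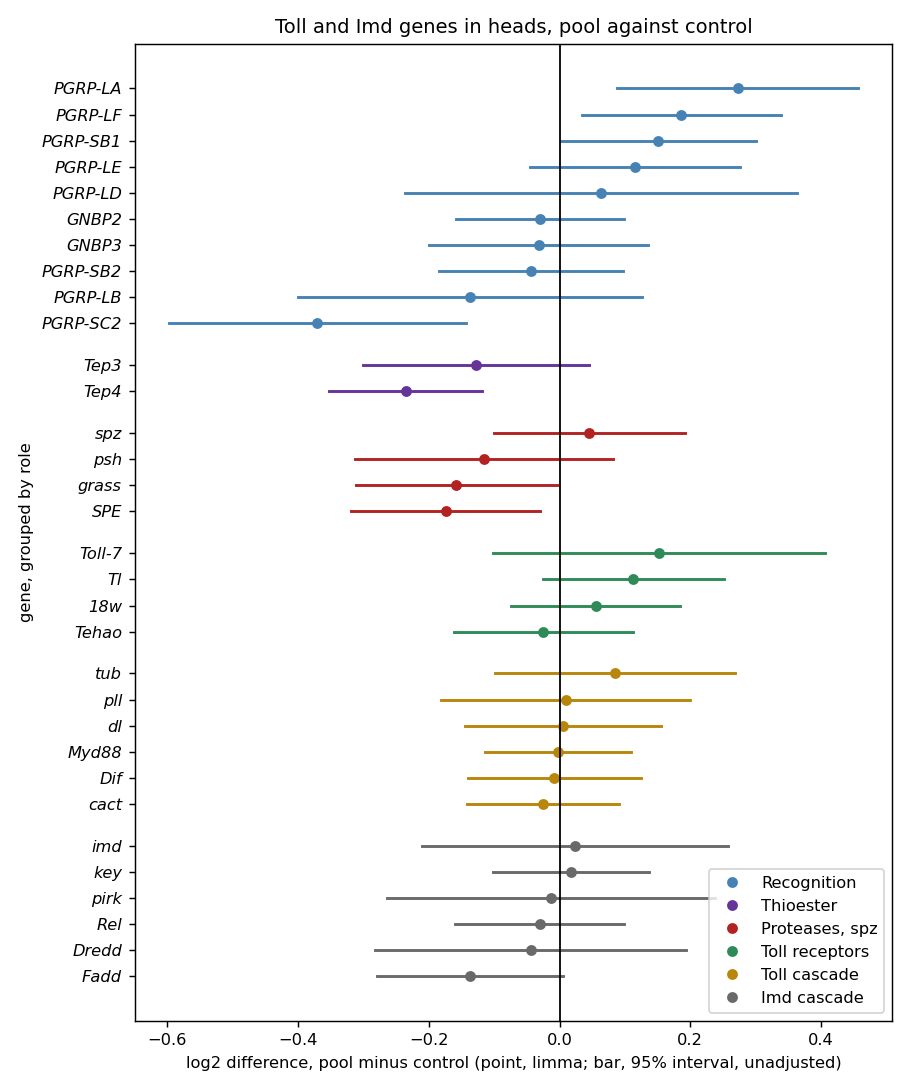
Log2 difference between pool and control for the 32 measured genes, grouped by role (y axis), with the limma estimate as a point and its unadjusted 95% interval as a bar (x axis, log2 units). PGRP-SC2 (-0.37) and PGRP-LA (0.27) lie farthest from 0, and the genes of the Toll and Imd intracellular cascades cluster around 0.

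Among the recognition proteins, 10 of 15 were measured, and they spread more widely around 0 than the intracellular genes, with a median absolute difference of 0.13 against 0.01 for the Toll cascade and 0.03 for the Imd cascade; these spreads were not tested against each other. PGRP-SC2 encodes a secreted amidase that cuts peptidoglycan into fragments that no longer stimulate, and so dampens the Imd response. It read 6.36, 6.18 and 6.03 in the controls and 5.69, 5.95 and 5.81 in the pool. All 3 pool arrays lay below all 3 controls, and the controls themselves spanned 0.32. The difference was -0.37 with a standard error of 0.098 (control 6.19 ± 0.16, pool 5.82 ± 0.13, SD, n = 3 per group), the largest of the 32 in size, and did not pass the test (limma adjusted p = 0.111). It lay below 0 with any 1 array left out and under every other setting tried, between -0.45 and -0.29.

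PGRP-LA and PGRP-LF flank the Imd receptor gene PGRP-LC on chromosome arm 3L in the Release 6 assembly. PGRP-LF encodes a membrane protein that holds back signalling by PGRP-LC, whereas PGRP-LA has been linked to stronger Imd signalling in epithelia. PGRP-LA read 7.27, 7.42 and 7.42 in the controls and 7.65, 7.51 and 7.77 in the pool, and its lowest pool array stood 0.08 above its highest control. Its difference was 0.27 with a standard error of 0.0795 (limma adjusted p = 0.143). PGRP-LF read 6.52, 6.68 and 6.60 in the controls and 6.70, 6.85 and 6.81 in the pool. The gap between the groups was narrower than in PGRP-LA, at 0.02, with a difference of 0.19 and a standard error of 0.0658 (limma adjusted p = 0.231). Both stayed above 0 under every setting tried, PGRP-LA between 0.21 and 0.34 and PGRP-LF between 0.14 and 0.23. PGRP-LC, which lies between them, was not analysed here.

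PGRP-SB1, another peptidoglycan amidase gene, read 8.28, 8.29 and 8.32 in the controls and 8.57, 8.36 and 8.41 in the pool. The controls were tight, with a range of 0.04, and the first pool array stood apart from the other two. The difference of 0.15 had a standard error of 0.0644 (limma adjusted p = 0.332). PGRP-LB, the amidase gene best known for restraining the Imd response, gave overlapping groups. It read 6.79, 6.53 and 6.32 in the controls and 6.47, 6.31 and 6.45 in the pool, for a difference of -0.14 and a standard error of 0.114 (limma adjusted p = 0.655). Without control replicate 1 that difference was -0.02 and without control replicate 3 it was -0.25. The difference of PGRP-SB1 was 0.09 without pool replicate 1. PGRP-SC2, PGRP-LB and PGRP-SB1 all encode enzymes that break peptidoglycan down, and they lay on both sides of 0.

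The remaining recognition genes lay between -0.04 and 0.11. PGRP-LE, whose protein senses peptidoglycan inside and outside the cell, was at 0.11 with a standard error of 0.0693, and its groups overlapped. GNBP3, a sensor of fungal β-glucan for the Toll pathway, was at -0.03, and its pool arrays (8.22, 8.29 and 8.23) lay within the control range of 8.19 to 8.43. GNBP2 was also at -0.03. PGRP-LD (0.06) and PGRP-SB2 (-0.04) were the only 2 of the 32 genes among the dimmest 25% of rows, with control means of 4.18 and 4.25. PGRP-LD also had the widest controls of the 32 genes, with an SD of 0.27, and its sign turned on leaving out control replicate 2 or 3.

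Thioester proteins are secreted relatives of complement and α2-macroglobulin that can attach to microbes. Of the 5 listed, 2 were measured. Tep4 came closest of all 32 genes to the threshold. It read 9.36, 9.37 and 9.43 in the controls and 9.15, 9.19 and 9.12 in the pool, so the groups were separated by more than the range within either of them, which was 0.06 in both. The difference was -0.24 with a standard error of 0.0504, a level 1.18-fold higher in the control than in the pool (limma adjusted p = 0.0533). Tep4 passed the test after quantile normalization (adjusted p = 0.0444), with the dimmest rows left out (0.0373) and with the trend and robust settings (0.00619). It did not pass with each array centred on its median, with array weights, with the replicate number as a block or with any 1 array left out, and its adjusted p reached 0.179. Tep3 read 7.33, 7.41 and 7.14 in the controls and 7.17, 7.17 and 7.15 in the pool. Its pool values lay within the control range, and its difference was -0.13 with a standard error of 0.0744 (limma adjusted p = 0.493), or -0.07 without control replicate 2.

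**Figure D2:**
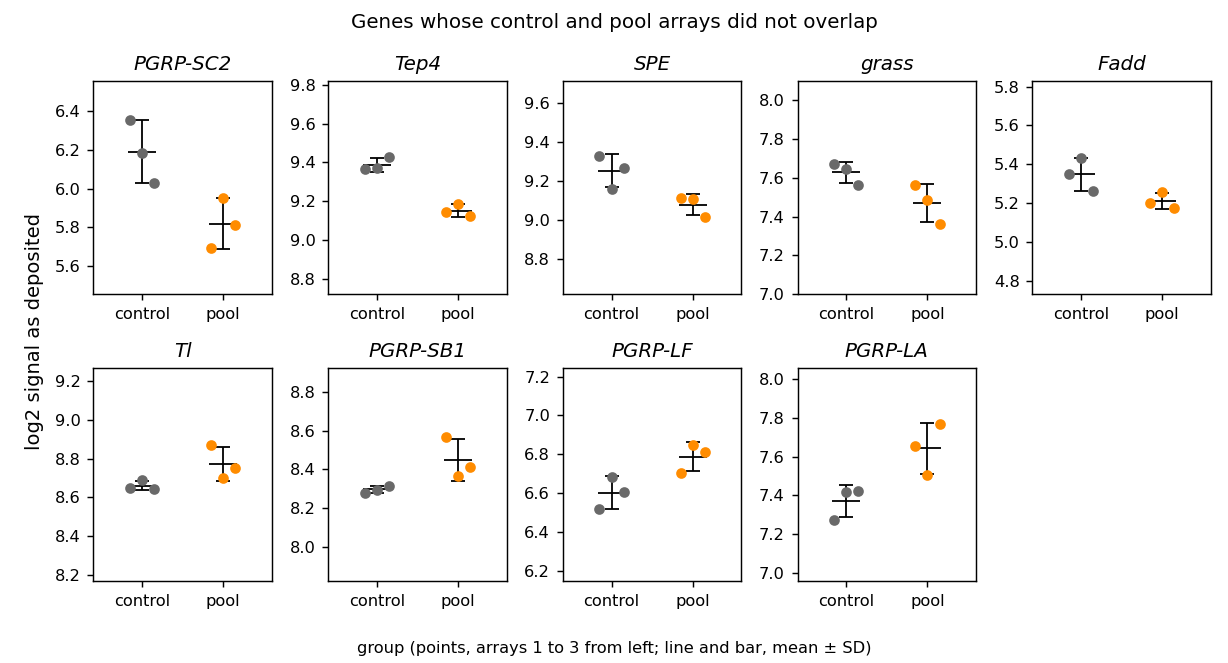
Log2 signal (y axis, each panel spanning 1.1 log2 units) on the 3 control and 3 pool arrays for the 9 genes whose groups did not overlap, ordered from the lowest to the highest difference, with the mean and SD as a line and bar. The gap between the groups exceeds the spread within them for Tep4, while the gap is narrowest in grass and Fadd (both under 0.01), Tl (0.01) and PGRP-LF (0.02).

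Blood cells and fat body are known sources of thioester and recognition proteins, and other tissues can also make PGRPs, so markers of those cell types were read beside these genes. Of 13 measured blood cell (hemocyte) markers, 2 fell and 0 rose, the crystal cell prophenoloxidase genes PPO1 and PPO2. The mean log2 level over the 13 ranged from 7.25 to 7.32 in the controls and from 7.22 to 7.25 in the pool. However, 7 of the 13 lay above 0, and the median difference over the 13 was 0.00. Uncalled markers lay on both sides, with NimC1 at 0.18, Col4a1 at 0.15 and Hml at -0.17 (limma adjusted p = 0.326, 0.332 and 0.134). The groups did not overlap in 1 higher marker, Col4a1, and in 4 lower ones, Hml among them. Of 14 fat body markers, 2 rose and 0 fell, Lsp2 and Obp99b, and the mean level ranged from 9.99 to 10.01 in the controls and from 10.08 to 10.13 in the pool. The differences of Lsp2 (1.33) and Obp99b (0.55) enter that mean, whereas 8 of the 14 lay below 0, the median was -0.04, and the groups did not overlap in 4 higher and 5 lower markers. The midgut, where PGRP-SC2 is known to be strongly expressed, is not among the head tissues named above. Of 10 genes set as midgut markers, 5 rose and 0 fell (betaTry, epsilonTry, Jon99Ci, LysP and Mal-A6). Their mean level over all 10 ranged from 6.66 to 6.72 in the controls and from 6.82 to 6.95 in the pool. Amy-p (-0.54, limma adjusted p = 0.0715) and Jon65Aiii (-0.13, 0.269) lay below 0 with no overlap between the groups. Most fits without a single array no longer called betaTry, Jon99Ci or Mal-A6, with adjusted p up to 0.139. The replicate block also lost betaTry (0.107) and Mal-A6 (0.0556), and centring lost betaTry (0.0578). Flight muscle, as distinct from muscle of the head capsule, is not among the head tissues named above either. Of 7 genes set as its markers 4 rose and 0 fell, with a mean level of 8.51 to 8.59 in the controls and 9.30 to 9.31 in the pool. The differences of Act88F (1.96), fln (1.90) and TpnC4 (1.16) enter that mean. Among the uncalled markers bt was at 0.01 and Mlc2 at 0.10, and sls lay below 0 (-0.17, limma adjusted p = 0.231). The groups did not overlap in Mlc2 and sls. The fourth called marker, up, was not called once an array was removed, whichever it was (limma adjusted p of 0.0582 to 0.0954). Nor was up called after centring (0.0605) or with the replicate block (0.0839). Of 9 glial markers 1 fell, wrapper, and 0 rose, with a mean level of 9.17 to 9.21 in the controls and 9.11 to 9.13 in the pool. The difference of wrapper (-0.47) enters that mean. The median was -0.07, with 6 of the 9 below 0 and 3 above it. The groups did not overlap in 4 lower markers and in 1 higher one, moody (0.20, limma adjusted p = 0.134). None of the 5 photoreceptor markers was called, but all 5 were higher in the pool with no overlap between the groups, at differences of 0.05 to 0.20. Their mean level was 12.11 in each control and 12.20 to 12.23 in the pool. Of 7 neuron markers 0 were called, and the groups overlapped in all 7. Shares called were 15.4% of blood cell, 14.3% of fat body, 50% of midgut, 57.1% of flight muscle and 11.1% of glial markers. Of all rows 2.90% were called. Groups did not overlap in 38.5%, 64.3%, 80%, 85.7% and 55.6% of those markers, in that order, against 21.5% of all rows. These shares were not tested. The signal has no true zero, but the hemocyte markers He and PPO3, the fat body marker Fbp1 and the midgut gene LysX were among the dimmest 25% of rows. The part of these cell types in the values of the Toll and Imd genes was not tested.

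In the extracellular step of the Toll pathway, 4 of 5 listed genes were measured, and the 3 proteases all lay below 0 while the ligand gene did not. SPE encodes the protease that cuts Spätzle into its active form. It read 9.33, 9.16 and 9.26 in the controls and 9.11, 9.11 and 9.02 in the pool, where every pool array lay below every control. The difference was -0.17 with a standard error of 0.0625 (limma adjusted p = 0.239). The gene grass encodes a protease that acts upstream of SPE, and it read 7.67, 7.65 and 7.56 in the controls and 7.56, 7.49 and 7.36 in the pool. The lowest control and the highest pool array differed by under 0.01, and the difference was -0.16 with a standard error of 0.0664 (limma adjusted p = 0.326).

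The protease gene psh, whose product is set off by proteases of invading microbes, gave overlapping groups, at 8.56, 8.55 and 8.39 in the controls and 8.54, 8.35 and 8.27 in the pool (-0.12, standard error 0.0853, limma adjusted p = 0.603). In SPE, grass and psh alike the first control array was the highest of the controls and the third pool array the lowest of the pool. All 3 kept their sign under every setting tried, and none was called under any, but without pool replicate 3 the difference was -0.10 in grass and -0.06 in psh. The ligand gene spz read 8.85, 8.72 and 8.81 in the controls and 8.82, 8.78 and 8.93 in the pool. Its groups overlapped, and its difference was 0.05 with a 95% interval of -0.10 to 0.19 (limma adjusted p = 0.808).

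All 4 listed Toll family receptors were measured, and 3 of them lay above 0. Tl, the receptor of Spätzle itself, read 8.65, 8.69 and 8.65 in the controls and 8.87, 8.70 and 8.75 in the pool. The second pool array lay only 0.01 above the highest control, and the difference was 0.11 with a standard error of 0.0598 (limma adjusted p = 0.438), or 0.06 without pool replicate 1. Toll-7, a receptor with known roles in neurons and in antiviral defence, was the farthest from 0 of the family. It read 7.26, 7.63 and 7.42 in the controls and 7.63, 7.42 and 7.72 in the pool, so the groups overlapped widely (0.15, standard error 0.109, limma adjusted p = 0.596), and the difference was 0.06 without control replicate 1 and 0.25 without control replicate 2. The other two receptor genes were 18w, a relative with known roles in development, at 0.06 with a standard error of 0.0558, and Tehao, at -0.02 with a standard error of 0.0591, and the groups overlapped in both.

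The intracellular genes of the Toll pathway lay nearest to 0 of the 6 role groups, with differences from -0.02 to 0.08. All 6 listed genes were measured, and the groups overlapped in every one. Over all rows the groups failed to overlap in 21.5% only, so overlap was the usual outcome. The adaptor gene Myd88 read 8.64, 8.68 and 8.67 in the controls and 8.64, 8.68 and 8.66 in the pool, and its interval of -0.11 to 0.11 was the narrowest around 0 of the 32 genes. The adaptor gene tub was the farthest from 0 at 0.08, with 6.03, 5.86 and 5.80 in the controls and 6.08, 5.88 and 5.98 in the pool (standard error 0.0794, limma adjusted p = 0.698). The kinase gene pll was at 0.01 with a standard error of 0.0821.

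The NF-κB genes of the Toll pathway and their inhibitor likewise gave overlapping groups. dl, which encodes Dorsal, read 7.94, 8.06 and 8.05 in the controls and 8.09, 7.93 and 8.05 in the pool (limma adjusted p = 0.984). Dif, the main Toll factor of the adult immune response, read 9.62, 9.76 and 9.65 in the controls and 9.66, 9.63 and 9.71 in the pool, with a 95% interval of -0.14 to 0.12 (limma adjusted p = 0.971). All 3 pool arrays of Dif lay within its control range, while those of dl reached just beyond it on both sides. cact, which encodes Cactus and is itself a known target of the pathway, was at -0.02 with an interval of -0.14 to 0.09 (limma adjusted p = 0.873).

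Of the 7 listed intracellular genes of the Imd pathway 6 were measured, and 5 of them had overlapping groups. The groups did not overlap in the remaining gene, Fadd, or 16.7% against 21.5% of all rows. The adaptor gene imd read 7.69, 7.85 and 7.74 in the controls and 7.60, 7.75 and 8.00 in the pool. Its pool arrays straddled the controls on both sides, with the largest pool SD of the 32 genes at 0.20, and the difference was 0.02 with a standard error of 0.101 (limma adjusted p = 0.949). The NF-κB gene Rel read 8.23, 8.27 and 8.27 in the controls and 8.29, 8.15 and 8.23 in the pool. The difference was -0.03 with a 95% interval of -0.16 to 0.10 (limma adjusted p = 0.862).

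Fadd, which encodes the adaptor between Imd and Dredd, was the Imd gene farthest from 0. It read 5.35, 5.43 and 5.26 in the controls and 5.20, 5.26 and 5.17 in the pool. The highest pool array and the lowest control were both at 5.26, separated by under 0.01, and the difference was -0.14 with a standard error of 0.0614 (limma adjusted p = 0.359). The caspase gene Dredd was at -0.04 and the IKK subunit gene key at 0.02. pirk, a target of the pathway whose product inhibits it at the receptor, was at -0.01 with a standard error of 0.108, and its controls spanned 0.38.

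**Figure D3:**
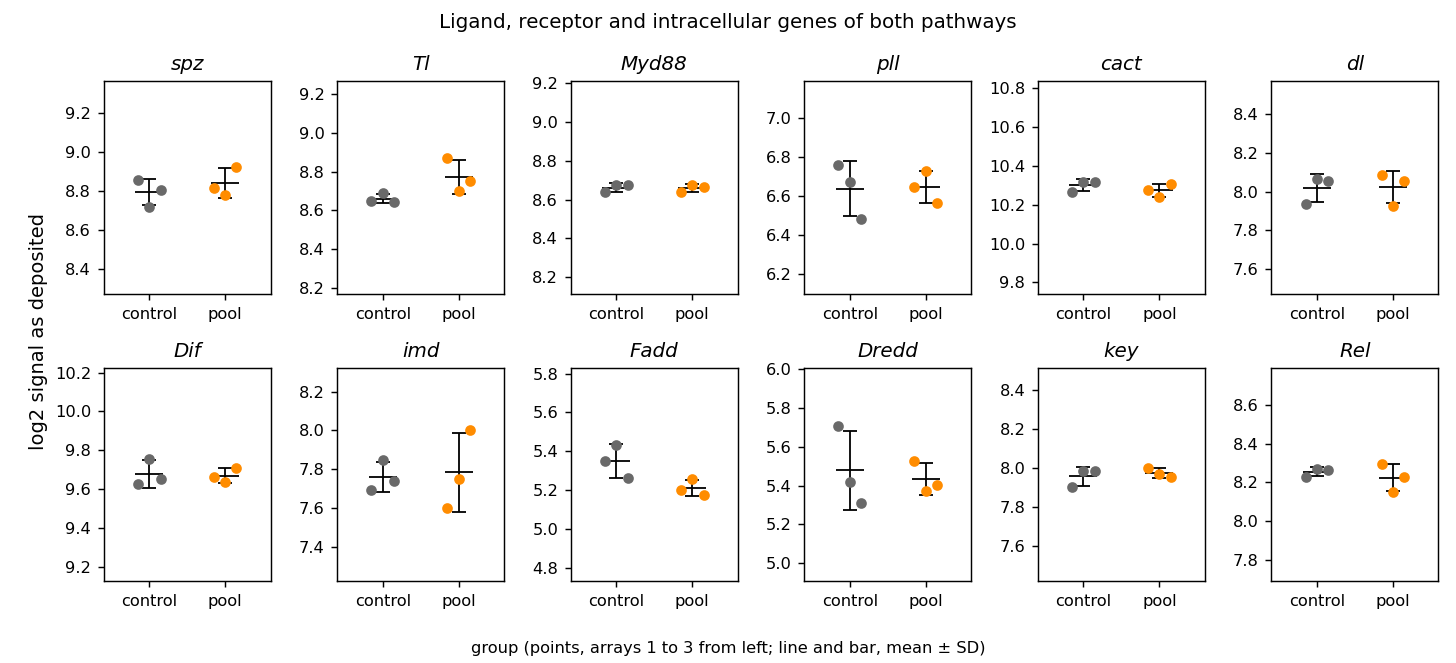
Log2 signal (y axis, each panel spanning 1.1 log2 units) of 12 ligand, receptor and intracellular genes of both pathways on the 3 control and 3 pool arrays, with the mean and SD as a line and bar. Control and pool points overlap in all panels but Tl and Fadd, and imd shows the widest pool values.

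A further list of 49 pathway genes outside the 42, such as other Toll receptors, Spätzle relatives, ubiquitin ligases and negative regulators, had 40 members measured, and none of them was called by limma. At an unadjusted p under 0.05, 5 of the 40 were higher and 3 lower (20.0%), and the groups did not overlap in 30.0%, shares to be read against the 14.8% and 21.5% of all rows. Their median difference was -0.01, as in the 32 genes.

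Genes of immune-induced peptides were called in both directions, and whether the called genes answered to either pathway was not tested. The list held 40 genes of antimicrobial and other immune-induced peptides, and several of them, such as DptA, Dro, AttA and AttC, were not measured. Of the 24 measured genes, 2 rose and 4 fell, or 25.0% against 2.90% of all rows. Their median difference was -0.11, with 18 of 24 below 0, and their median absolute difference was 0.19 against 0.06 in the 32 signalling genes; the gap between the 2 sets was not tested. Many of these peptides are known targets of Toll, Imd or both. BomT2, a Bomanin gene and so a Toll target, read 9.69, 9.62 and 9.50 in the controls and 9.12, 8.98 and 8.99 in the pool, and fell by 0.57 on the log2 scale (standard error 0.0705, limma adjusted p = 0.00548). Dso2, which encodes a Daisho antifungal peptide also induced through Toll, read 11.07, 11.02 and 10.99 in the controls and 11.35, 11.41 and 11.34 in the pool, a rise of 0.34 (standard error 0.0518, limma adjusted p = 0.0139). In both genes the groups were apart by more than the spread within them. BomT2 was called under every alternative, whereas Dso2 was not called with the replicate number as a block (adjusted p = 0.0528) or without control replicate 2, pool replicate 1, pool replicate 2 or pool replicate 3 (up to 0.0654). The other called genes were Drs, a rise, and Def, Drsl4 and DptB, all falls, of which Def failed the test on removal of control replicate 1 (adjusted p = 0.101), control replicate 2 (0.0907) or pool replicate 3 (0.0681). The adjusted p of spz, Tl, Dif, dl, imd and Rel was 0.438 or more in the same fit.

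**Figure D4:**
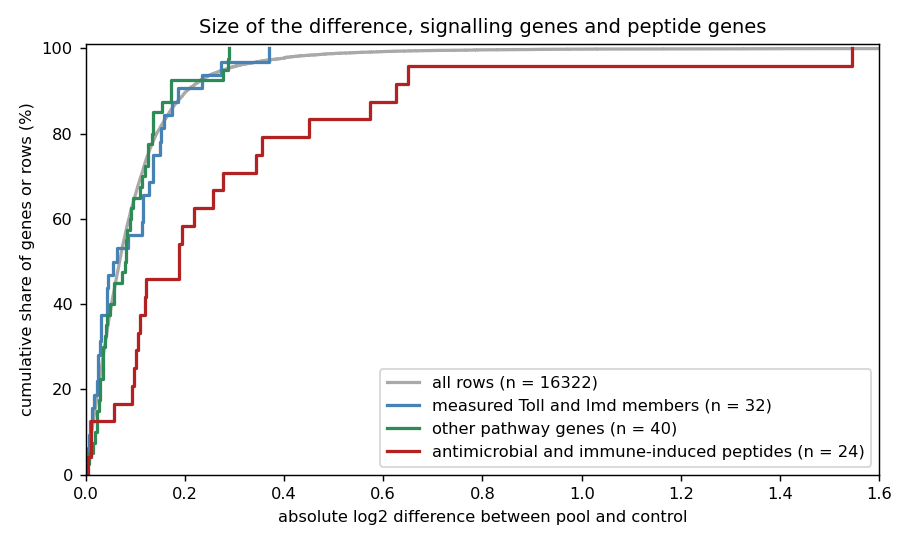
Cumulative share of genes or rows (y axis, percent) by the absolute log2 difference between pool and control (x axis) for all 16322 rows, the 32 measured Toll and Imd genes, 40 other pathway genes and 24 antimicrobial and immune-induced peptide genes; 13 rows beyond 1.6 are not shown. The curves of both sets of pathway genes run beside that of all rows, and the curve of the peptide genes lies to their right, out to Drs at 1.54.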

How the data were processed

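The authors' deposited values were used, 1 log2 value per row and array. The log2 scale was inferred from their range (3.20 to 14.02). Affymetrix Expression Console is the tool named, per the submitters' processing notes; its version, algorithm and normalization, and the genome build, were not given in these sources. A normalization between arrays would have removed any shift shared by most genes. Of 16322 rows, 13442 had 1 gene symbol, 554 several and 2326 none in the platform annotation; 144 symbols were updated from RefSeq (Release 6 plus ISO1 MT). Rows with several symbols stayed in the fit and are not named. No member (listed gene) had more than 1 row. Pool and control were compared over all rows with limma 3.58.1 (R 4.3.3; lmFit, eBayes, two-sided; 4 residual and 3.78 prior degrees of freedom). The procedure was tested on simulated data of 16322 rows, 200 of them changed. It recovered 20% of changes of 0.3 on the log2 scale, 76% of 0.585, 92% of 1 and 98% of 2, with 3 false calls. Most changes of 0.3 thus went uncalled in the simulation, and some of 0.585, 1 and 2 did as well. A gene left uncalled is therefore not shown to be unchanged. Errors after ± are SDs over 3 arrays; the number of arrays limits the precision.

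The members and gene lists were chosen with earlier results of these data known. Array values were given for called members, uncalled members whose groups did not overlap and differed by at least 0.25, the farthest member of each role and central genes of both pathways; other array values were chosen after they were seen. Other genes were named if called, as cell type markers or as genes targeted in the pooled lines. The uncalled markers named were chosen after their values were seen. Alternatives were quantile normalization, median centring, leaving out the dimmest 25% of rows, the replicate number as a block, trend and robust settings, array weights and leaving out each array. A mean over a gene's rows was planned, but no member had several.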

Additional observations from a re-analysis of the deposited data

How the results depend on the processing

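No member was called higher under any of the 12 alternatives, and 1 was called lower, Tep4, under 3 of them: quantile normalization, leaving out the dimmest rows, and the trend and robust settings. With any 1 array left out 0 were called in either direction. Rows called over the whole array, 270 higher and 203 lower, ranged from 124 to 174 higher and from 88 to 147 lower with 1 array left out, and came to 476 higher and 385 lower with the trend and robust settings. With the replicate block 190 rows were called higher and 122 lower, and no member. The replicate numbers gave no clear sign of pairing. Deviations from the group means correlated at -0.014, -0.0048 and 0.090 between arrays of the same number, and only number 3 correlated best with its own. Deviations within a group of 3 arrays depend on one another, so these values cannot settle whether the arrays were paired. The median over the members was -0.043 with each array centred on its median, which shifts the median of all rows to -0.03, and ranged from -0.03 to 0.01 with 1 array left out. After centring 219 rows were called higher and 249 lower.

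Of the 32 members 19 kept their sign under every alternative. Among them some sizes rested on 1 array: with 1 array left out the difference ranged from -0.250 to -0.0155 for PGRP-LB, 0.0911 to 0.193 for PGRP-SB1, 0.0669 to 0.160 for PGRP-LE, 0.0644 to 0.150 for Tl, 0.0635 to 0.248 for Toll-7, -0.195 to -0.0567 for psh, -0.203 to -0.104 for grass, -0.205 to -0.0686 for Tep3, 0.0356 to 0.151 for tub and 0.0025 to 0.0766 for spz. The other 13 lay between -0.04 and 0.06 and were called under none. The sign of pll turned after quantile normalization (-0.00288), centring (-0.0233) and array weights (-0.00891), that of dl after quantile normalization (-0.0168) and centring (-0.0276), and those of imd (-0.00917) and key (-0.0149) after centring. With 1 array left out the difference ranged from -0.0241 to 0.216 for PGRP-LD, -0.0566 to 0.00764 for GNBP2, -0.0749 to 0.0421 for GNBP3, -0.0146 to 0.00819 for Myd88, -0.0687 to 0.0701 for pll, -0.0359 to 0.0522 for dl, -0.0347 to 0.0317 for Dif, -0.0850 to 0.116 for imd, -0.128 to 0.0697 for Dredd, -0.00995 to 0.0315 for key, -0.0650 to 0.00598 for Rel, -0.0937 to 0.0941 for pirk and -0.0586 to 0.0129 for Tehao. The cause was not tested.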
